A study of Rattus norvegicus with 15 samples.

Results

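The let-7 family is the set of miRNAs that share the seed GAGGUAG, and 8 of them were followed here in rat liver: let-7a, let-7b, let-7c, let-7d, let-7e, let-7f, let-7i and miR-98. They were chosen by name, as the rows of the array design that carry these names, and make up 8 of the 350 miRNAs and 16 of the 938 probes on the array. let-7g carries the same seed and was not analysed here. The samples were 15 single-colour miRNA arrays of bulk liver tissue, each loaded with RNA pooled from 4 rats. EtOH livers came from rats kept on a chronic ethanol diet, and CHO livers from rats pair-fed a carbohydrate control diet. Before partial hepatectomy (PHx, surgical removal of part of the liver, after which the remnant regrows) there were 3 EtOH and 4 CHO pools. At each of 1, 6, 12 and 24 h after PHx there was 1 EtOH and 1 CHO pool. All livers at these 4 times had therefore undergone PHx in both diets, and no pool of unoperated or sham-operated rats at those times was used here. By their animal identifiers, 7 pools were measured on 2 occasions, before PHx and after it. The same piece of liver cannot have been taken on both occasions. Part of the liver and time after PHx therefore cannot be told apart in these pools. The 1 h and 6 h pools share 1 animal identifier in EtOH and 1 in CHO.

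let-7 was found in Caenorhabditis elegans as a regulator of developmental timing, and in mammals its members are abundant in differentiated tissues. A mature miRNA guides an Argonaute protein to messenger RNAs through its seed, bases 2 to 8, and lowers their translation or stability. In mammals let-7 members are known to repress Lin28, Hmga2 and Ras family messages, and they are often described as restraining proliferation, while LIN28 proteins block the processing of let-7 precursors.

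The sequences are shown because the members differ so little that a probe must tell apart RNAs with 1 to 6 different bases. Mature sequences are from RefSeq (GRCr8), 5′ to 3′, with the seed in capitals, and 8 of 8 members had an entry.
let-7f: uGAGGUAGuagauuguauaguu
let-7a: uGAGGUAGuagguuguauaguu
let-7c: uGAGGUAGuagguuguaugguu
let-7d: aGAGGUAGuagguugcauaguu
let-7b: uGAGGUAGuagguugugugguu
let-7i: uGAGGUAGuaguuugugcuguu
miR-98: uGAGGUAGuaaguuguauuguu
let-7e: uGAGGUAGgagguuguauaguu

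All 8 are 22 bases long and have the same seed. Counted from 1 at the 5′ end, with the base of let-7a first, let-7f differs from let-7a by G12A, let-7c by A19G, and let-7e by U9G. let-7b differs by A17G and A19G, let-7d by U1A and U16C, and miR-98 by G11A and A19U. let-7i is farthest from let-7a, with G12U, A17G, U18C and A19U.

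The 8 members come from 11 loci in GRCr8, several of them side by side. let-7a is encoded at chr17:16320145-16320166 and again at chr8:50805219-50805240, both on the plus strand. The chromosome 17 copy starts 363 bases before a let-7f copy and 2128 bases before let-7d (chr17:16322273-16322294). The other let-7f copy (chrX:24460052-24460073) starts 611 bases before miR-98 (chrX:24460663-24460684). let-7b (chr7:118684044-118684065) lies 408 bases from a let-7c copy, and let-7e (chr1:67350243-67350264) has miR-99b at 173 bases and miR-125a at 446 bases. let-7i (chr7:60527935-60527956, minus strand) had no miRNA of the table on its own strand within 10000 bases. The opposite strand was not searched for neighbours. A mature RNA made from 2 loci gives 1 signal, so the arrays do not tell the copies of let-7a, let-7c or let-7f apart.

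The values are array signals in intensity units, scaled to the 75th percentile of the 185 probes detected on all arrays, with the brighter of a member's 2 probes standing for it. Between 108 and 131 miRNAs were detected per array, and all 8 members were detected on 15 of 15 arrays. miR-122, the most abundant miRNA of hepatocytes, was the brightest miRNA on 15 of 15 arrays and held 46.0% to 51.3% of the summed signal. One array stood apart, that of the third EtOH pool before PHx (EtOH before PHx, replicate 3). In a central zone of its surface (the middle part of both rows and columns) 316 of 408 spots (77.5%) were under 0.5 of the brightest spot of their probe, against 57 of 1373 spots (4.15%) elsewhere on it, and on the other 14 arrays the share was at most 0.451% in either zone. Of the spots of the 8 members, 13 of 75 were this dim on that array and 0 on each of the other 14. The spots of let-7f varied there with a coefficient of variation of 60.7%, those of let-7c 54.1% and those of let-7a 48.2%, while those of miR-98 varied by 5.51%. Several results that rest on that array are given with and without it, or with the median of a probe's spots, but not all.

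The brightest member was let-7f, followed by let-7a, let-7c, let-7d, let-7b, let-7i, miR-98 and let-7e. In EtOH livers let-7f had scaled signals of 3750, 4021 and 2806 before PHx and 4061, 4405, 3876 and 3762 at 1, 6, 12 and 24 h. In CHO livers it had 3806, 3753, 4312 and 3641 before PHx and 3652, 3947, 4023 and 3633 at the same times. The single low value was that of the array with the dim centre, and all other arrays lay between 3633 and 4405. let-7a had 2865, 3263 and 2533 in EtOH livers before PHx and 3119, 3591, 3246 and 2977 after it, against 2953, 2894, 3555 and 2923 in CHO livers before PHx and 2777, 3247, 3405 and 3007 after it. EtOH and CHO livers overlapped for both members, before and after PHx. Together let-7f and let-7a gave 55.4% to 64.4% of the signal of the 8 members, the lowest share again on the array with the dim centre.

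let-7c, which is 1 base from let-7a, had 1376, 1646 and 1256 in EtOH livers before PHx and 1552, 1760, 1649 and 1484 at 1, 6, 12 and 24 h. In CHO livers its signals were 1564, 1572, 1861 and 1562 before PHx and 1479, 1670, 1867 and 1722 after it. Of the 3 EtOH pools before PHx, 2 lay below the 4 CHO pools and 1 lay among them. One of the 2 low values, 1256, was on the array with the dim centre, where 4 of 10 let-7c spots were dim. With the median of spots that pool had 1532, above the lowest CHO pool at 1500. let-7d had 908, 1118 and 1125 in EtOH livers before PHx and 1000, 1206, 1056 and 948 after it, against 906, 885, 1087 and 887 in CHO livers before PHx and 837, 983, 1025 and 919 after it. The signals of let-7b were 776, 875 and 980 in EtOH livers before PHx and 828, 952, 856 and 773 after it, and 878, 843, 923 and 822 in CHO livers before PHx and 821, 944, 1031 and 988 after it. At each time after PHx let-7d was higher in the EtOH pool than in the CHO pool. let-7b was nearly equal in the EtOH and CHO pools at 1 h and 6 h, and lower in the EtOH pool at 12 h and 24 h. With the median of spots let-7b was 840 in EtOH and 845 in CHO at 1 h, and 938 in EtOH and 961 in CHO at 6 h.

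The 3 dimmest members were let-7i, miR-98 and let-7e. let-7i ranged from 298.6 to 393.4 with a median of 342.3 over the 15 arrays. let-7e ranged from 74.7 to 105.5 with a median of 87.7, well above the floor of 9.61 set for undetected probes. miR-98 had 222, 250 and 437 in EtOH livers before PHx and 235, 276, 311 and 283 after it, against 235, 222, 365 and 294 in CHO livers before PHx and 215, 275, 368 and 309 after it. It varied most, with a coefficient of variation between arrays of 22.2%, while the other 7 members lay between 8.34% and 10.8%. On the log2 scale miR-98 had an SD of 0.30 over the 15 arrays, and 88 of the 100 tested miRNAs detected on all arrays had a smaller one. The other 7 members had SDs of 0.12 to 0.15, below the median of 0.19 over those 100 miRNAs.

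**Figure D1:**
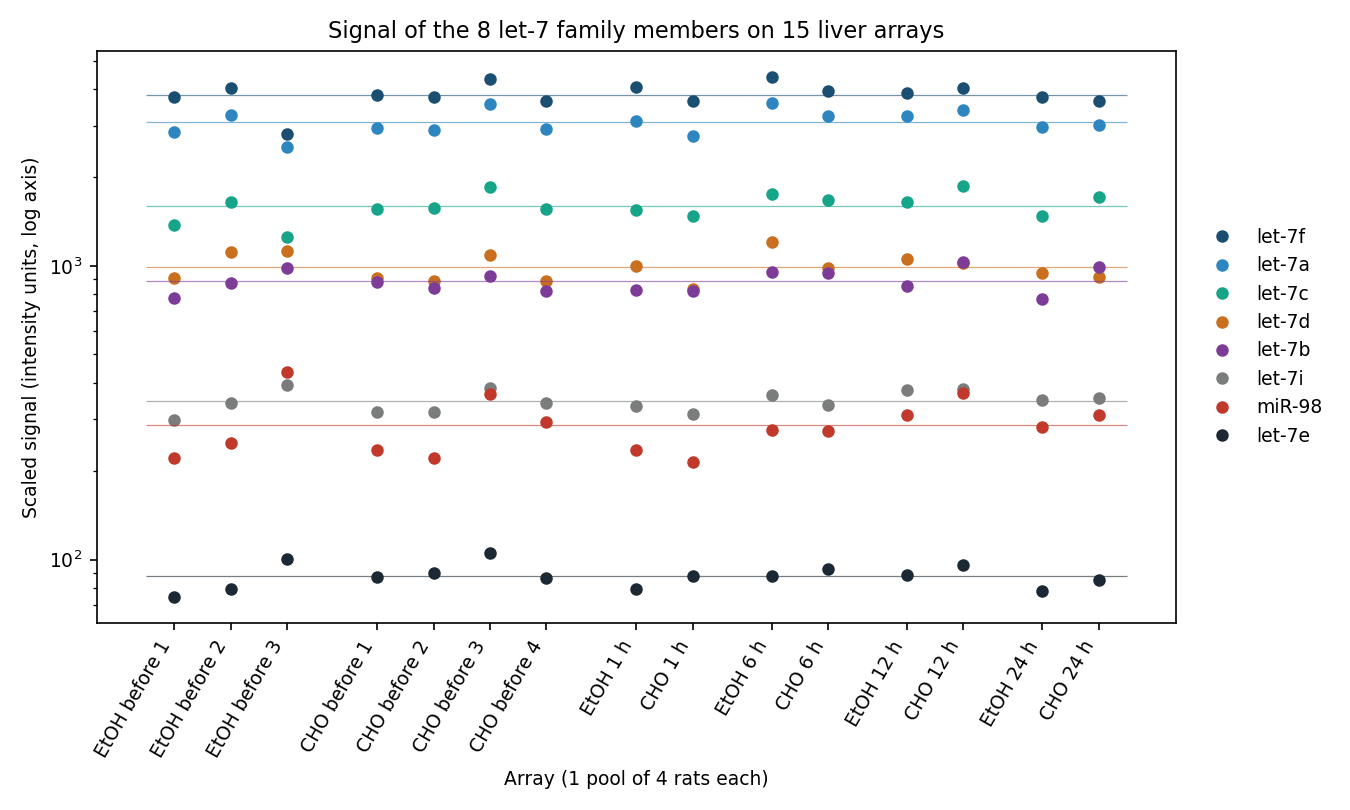
Scaled signal (intensity units, log axis) of each let-7 family member on each of the 15 arrays, with 1 point per array, a line at the member's mean over all arrays, and the EtOH pool left of the CHO pool within each time. The bands of let-7f and let-7a, of let-7d and let-7b, and of let-7i and miR-98 overlap. let-7f drops to 2806 on the EtOH array before PHx, replicate 3, within the range of let-7a (2533 to 3591).

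Pairs of members mostly kept their order from array to array. Of the 28 pairs of members, 26 had the same order on all 15 arrays, and 12 arrays had exactly the mean order. Kendall's W, which is 1 when all arrays rank the members alike, was 0.992, and the lowest Spearman correlation of an array with the mean order was 0.976. On the EtOH array before PHx, replicate 3, miR-98 lay above let-7i, with a ratio of 1.11, against 0.686 to 0.963 on the other 14 arrays. There 2 of 10 let-7i spots were dim. With the median of spots let-7i lay above miR-98 on that array, at 405 against 389. On the CHO arrays at 12 h and 24 h let-7b lay above let-7d, with ratios of let-7d to let-7b of 0.995 and 0.930. Leaving out the array with the dim centre left 27 of 28 pairs in 1 order over 14 arrays, and the median of a probe's spots in place of their mean gave 27 of 28 over 15. The dimmer probes left 25 of 28, and exactly the mean order was held by 7 of 15 arrays with the total gene signal of the scanner software, 7 with the authors' deposited table and 8 with the mean of all probes. By slide, 4 of 7 arrays of slide 2 and 8 of 8 of slide 1 had the mean order. The closest neighbours that never changed places were let-7f and let-7a, with a ratio of 1.11 to 1.32. The mean log2 difference between neighbours in the order was 0.16 for let-7d over let-7b, with an SD of 0.14 over arrays, and 0.30 for let-7i over miR-98, with an SD of 0.20. For let-7f over let-7a it was 0.31 with an SD of 0.07, for let-7a over let-7c 0.95 with an SD of 0.07, and for let-7c over let-7d 0.69 with an SD of 0.19.

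The place of let-7d and let-7b depended on the probe. With the dimmer probe of each member, or with the mean of both probes, let-7b lay above let-7d on average, and the other members kept their places. The brighter probe of let-7d gave 1.97 times the signal of its other probe, against 1.48 times for let-7b. Signals of different probes are not on a common scale of amount, so the order is one of array signals and not of molecules in the liver. How far a probe of a member also binds the other members was not tested.

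The family as a whole held a steady part of the liver's miRNA signal. The 8 members gave between 13.2% and 15.3% of the summed signal of the 350 miRNAs on an array. Before PHx the share was 13.2%, 14.9% and 13.8% in EtOH livers, against 14.1%, 14.3%, 15.3% and 14.5% in CHO livers. The diets overlapped, with means of 13.9% ± 0.88 for EtOH pools (SD, n = 3) and 14.5% ± 0.51 for CHO pools (SD, n = 4). The difference of -0.591 percentage points gave p = 0.314 in an exact two-sided permutation test, whose smallest possible p with 35 groupings is 0.0571, and the difference was -0.514 without the array with the dim centre. After PHx the share averaged 14.3% ± 0.37 in EtOH and 14.3% ± 0.47 in CHO (SD, n = 4 pools at 4 different times each). Without miR-122 in the sum the share before PHx was 27.5% ± 1.8 in EtOH and 27.8% ± 1.4 in CHO.

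**Figure D2:**
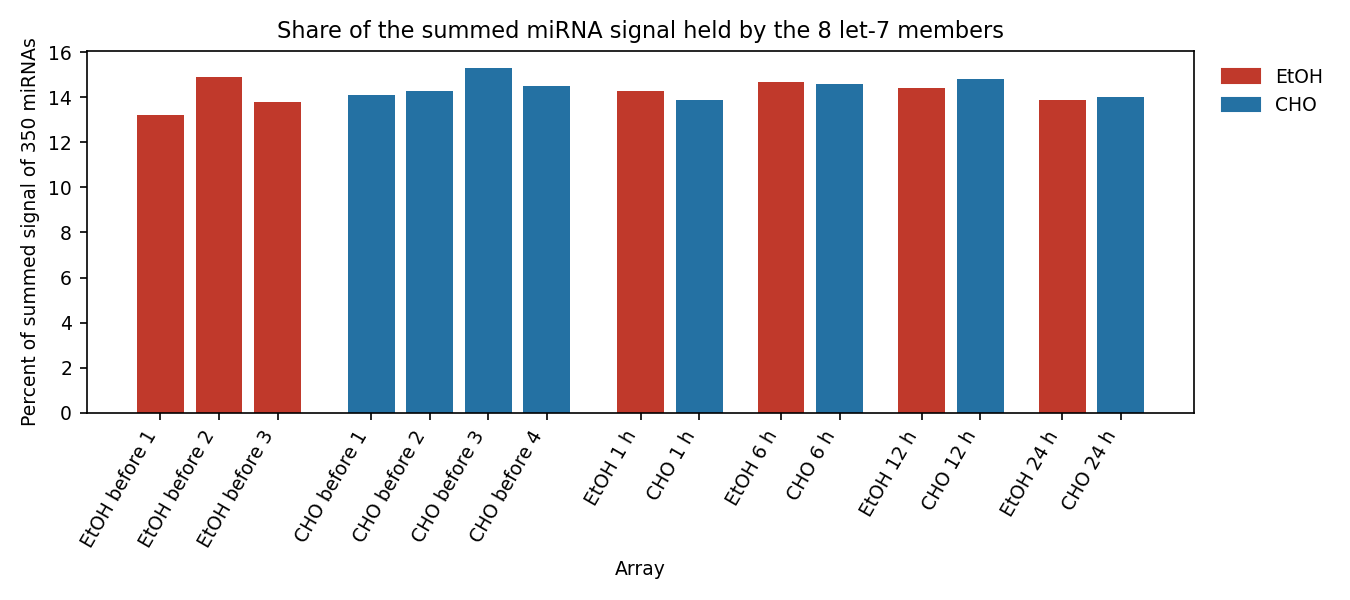
Percent of the summed scaled signal of all 350 miRNAs that the 8 let-7 members held on each of the 15 arrays, 1 bar per array, EtOH left of CHO within each time. The bars lie between 13.2% and 15.3%, and the diets overlap before and after PHx.

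Whether chronic ethanol shifted the members was asked by comparing the diets before PHx and over the 4 times after it. In limma, with Benjamini-Hochberg adjustment over the 134 tested miRNAs and calls at an adjusted p under 0.05, 0 of 8 members were called before PHx, where 15.7% of all tested miRNAs were called. After PHx 0 of 8 were called, against 7.46% of all tested miRNAs. The number of all miRNAs called depended on single arrays: without the array with the dim centre it was 34 before PHx and 33 after it, against 21 and 10 with all arrays. After PHx it was 1 without the EtOH or the CHO array at 1 h or at 6 h. Leaving out replicate 1 or replicate 2 of CHO before PHx gave 2. None of the 8 reached an unadjusted p under 0.05 in either comparison, where 35 and 41 of the 134 did. The median log2 difference of the 8 members, EtOH minus CHO, was -0.04 before PHx and -0.01 after it, beside -0.08 and -0.05 over all tested miRNAs. The lowest adjusted p in limma was 0.24, for let-7c before PHx, with a log2 difference of -0.21 (SE 0.11). That difference was -0.06 with the median of spots and -0.12 without the array with the dim centre, and -0.32 without EtOH before PHx, replicate 2 (limma adjusted p 0.0666). let-7d had 0.16 (SE 0.11) before PHx and 0.16 (SE 0.10) after it, with limma adjusted p-values of 0.379 and 0.305. Without the array with the dim centre its difference before PHx was 0.10. The 95% intervals of the 8 members ran from 0.735- to 1.49-fold before PHx and from 0.700- to 1.32-fold after it, each end being that of 1 member, and miR-98 had the widest interval. Without the array with the dim centre 1 of 8 members was called before PHx: let-7e, with a log2 difference of -0.26 and a limma adjusted p of 0.0494. Per pool, let-7e had 74.7, 79.1 and 101 in EtOH livers before PHx, against 87.1, 90.2, 105.5 and 86.8 in CHO livers, and the highest EtOH value was that array's. The difference between the diets itself did not pass a test of change with PHx, with 0 of 8 members called, 0 of 134 miRNAs called (0%) and a lowest adjusted p of 0.841 among the members in limma.

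The course after PHx was compared with the arrays before it, over both diets. In limma 0 of 8 members were called at 1 h, where 0% of all tested miRNAs were called and 4 of 134 had an unadjusted p under 0.05. Likewise 0 of 8 were called at 6 h (4.48% of all), at 12 h (5.97%), at 24 h (13.4%) and in the mean over the 4 times (6.72%). With pools of the same rats as a block 0 of the 134 miRNAs were called at 24 h, where the CHO pool alone has both arrays, 3 at 12 h and 4 at 6 h, against 18, 8 and 6 without it. Without that block 0 of 8 members had an unadjusted p under 0.05 in each of these comparisons. At 12 h all 8 log2 differences were above 0, from 0.07 to 0.27 with a median of 0.14, beside a median of 0.06 over all tested miRNAs. With slide in the fit these medians were 0.03 and 0.03. At 1 h 7 of 8 were below 0, from -0.32 for miR-98 to 0.07 for let-7f, with a median of -0.08 beside 0.001 over all tested miRNAs. These directions depended on the fit. With slide in it 5 of 8 were below 0 at 1 h and 5 of 8 above 0 at 12 h, and with pools of the same rats as a block 2 of 8 were below 0 at 1 h and 3 of 8 above 0 at 12 h. The lowest adjusted p of a member was 0.411, for let-7a at 6 h, with a log2 difference of 0.20 (SE 0.11, limma). The members' intervals at single times ran from 0.558- to 1.72-fold, both ends being those of miR-98. In bulk liver, fewer cells that hold a miRNA and less of it per cell cannot be told apart.

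**Figure D3:**
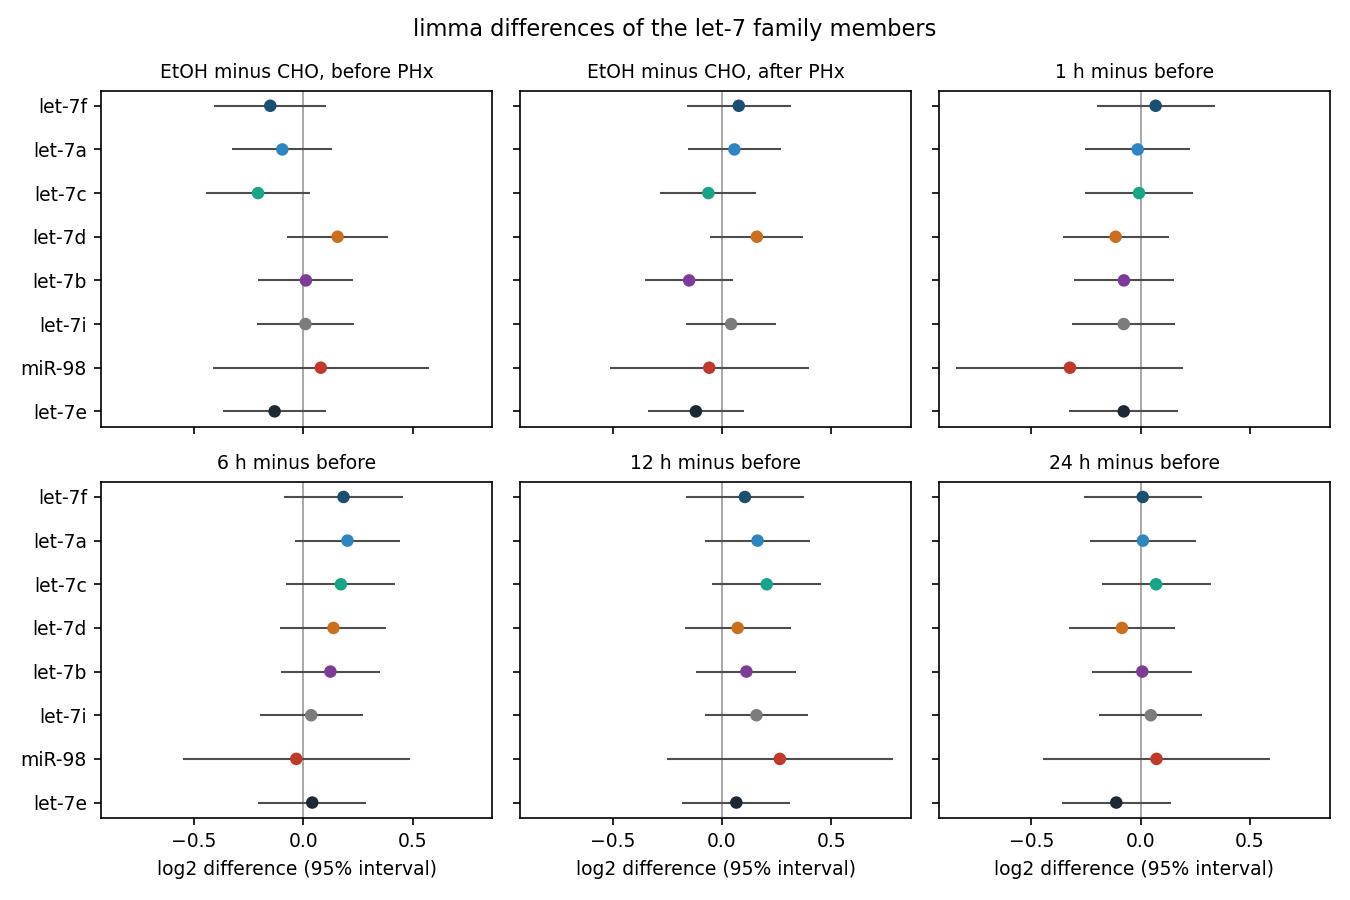
Log2 differences of the 8 members from limma with 95% intervals, for EtOH minus CHO at each stage and for 1, 6, 12 and 24 h minus the arrays before PHx. All 48 intervals include 0, and those of miR-98 are the widest.

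Within pools the same rats could be followed over PHx, though not in the same piece of liver. The log2 change of let-7f was 0.12 at 1 h, 0.13 at 6 h and 0.47 at 12 h in EtOH pools, and -0.06, 0.07, -0.10 and -0.003 at 1, 6, 12 and 24 h in CHO pools. The change of 0.47 was taken against the array with the dim centre. The change of let-7c was above 0 in 6 of 7 pools, from -0.08 to 0.39 with a median of 0.10. Its 0.39 was also taken against that array, and without that pool its highest change was 0.17. The smallest of its changes above 0 was 0.005, in the CHO pool at 12 h. Changes of the remaining members were above 0 in 4 or 5 of the 7 pools.

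Ratios of 2 members on the same array need no scaling between arrays, and some of them separated the diets where the members themselves did not. For single members, 0 of 8 had EtOH and CHO pools that did not overlap before PHx, against 25.4% of all tested miRNAs. Of the 28 ratios, 5 (17.9%) did not overlap between diets before PHx, against 23.1% of all ratios of 2 tested miRNAs, and 11 (39.3%) did not overlap after PHx, against 14.4%. The count after PHx was 2 of 28 with quantile normalization and 2 of 28 with the authors' deposited table. In both sets of arrays 4 ratios (14.3%) did not overlap, against 5.87% of all ratios. These were let-7a to let-7c, let-7a to let-7d, let-7c to let-7d and let-7d to let-7e, and 3 of them hold let-7d. They were picked after their values were seen, and no test was made of them. Ratios that share a member are not independent of each other. Nor are the 2 sets of arrays, since 7 pools of rats were measured in both.

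The ratio of let-7c to let-7d was 1.52, 1.47 and 1.12 in EtOH livers before PHx and 1.55, 1.46, 1.56 and 1.56 at 1, 6, 12 and 24 h. In CHO livers it was 1.73, 1.78, 1.71 and 1.76 before PHx and 1.77, 1.70, 1.82 and 1.87 after it. All 7 EtOH arrays thus lay below all 8 CHO arrays, though 7 pools gave 2 arrays each. On the array with the dim centre the ratio was 1.40 with the median of spots. let-7d to let-7e was 11.2 to 14.1 on the EtOH arrays and 9.55 to 10.8 on the CHO arrays. The 11.2 was on the array with the dim centre, where the median of spots gave 12.1. let-7a to let-7d was 2.25 to 3.16 on the EtOH arrays, or 2.92 to 3.16 without the array with the dim centre, and 3.26 to 3.32 on the CHO arrays. let-7d to let-7b, the pair whose order was least settled, was 1.15 to 1.28 in EtOH livers and 1.03 to 1.18 in CHO livers before PHx, which overlap, and 1.21 to 1.27 in EtOH livers and 0.930 to 1.04 in CHO livers after PHx, which do not. In each of these ratios let-7d was on average relatively higher in EtOH livers, while let-7d itself overlapped between diets.

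The ratios depended on how a member's signal was made. let-7c to let-7d kept the diets apart with quantile normalization, with the mean of all probes, with the total gene signal and with the median of spots. It did not with the dimmer probes or with the values of the authors' deposited table. let-7d to let-7b kept the diets apart in both sets of arrays with the mean of all probes, the total gene signal, the median of spots, the dimmer probes and the authors' deposited table. The number of ratios that did not overlap in both sets was 4 with the main values, 1 with quantile normalization, 1 with the authors' deposited table, and 2 with normexp or with the dimmer probes. It was 6 with the total gene signal, with the mean of all probes or without the array with the dim centre. With the median of spots it was 4, but let-7a to let-7c was not among them, since it was 1.53 on the array with the dim centre, below the CHO arrays.

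**Figure D4:**
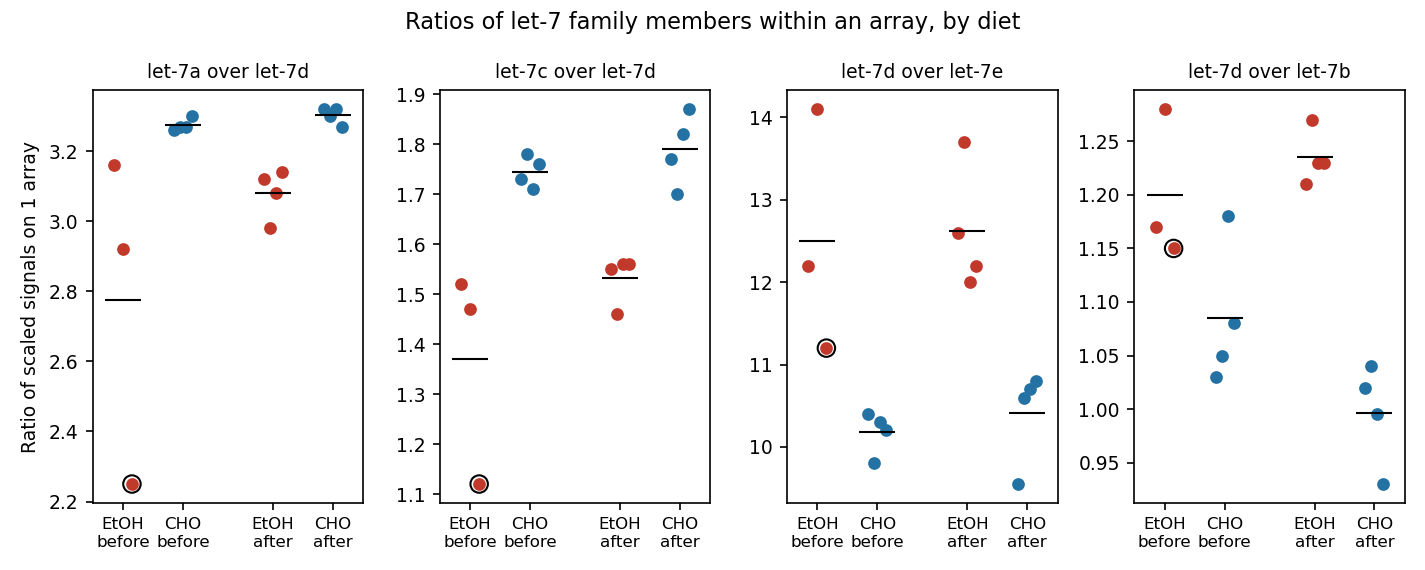
Ratios of scaled signals within an array for 4 pairs of members, with 1 point per array, a bar at the group mean, EtOH left of CHO before and after PHx (n = 3, 4, 4 and 4), and a ring around the array with the dim centre. let-7c over let-7d lies between 1.12 and 1.56 on the EtOH arrays and between 1.70 and 1.87 on the CHO arrays; the axes do not start at 0.

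The slides set miR-98 apart. The arrays sat on 2 slides, with the pools of the 1 h and 6 h sets on slide 1 and those of the 12 h and 24 h sets on slide 2, each with their arrays before PHx. miR-98 ranged from 283.3 to 436.6 on the 7 arrays of slide 2 and from 215.0 to 275.6 on the 8 arrays of slide 1, with no overlap. The highest slide 2 value is that of the array with the dim centre, and the next was 368. Among the arrays before PHx it averaged 365.2 ± 71.5 on slide 2 (SD, n = 3) and 232.4 ± 13.4 on slide 1 (SD, n = 4). With slide added to the limma fit, slide 2 minus slide 1 was a log2 difference of 0.67 for miR-98, with an SE of 0.11 and an adjusted p of 0.0189. It was the only miRNA of the 134 called for slide (0.746%). Slide was not fitted without the array with the dim centre. let-7i had 0.24 (SE 0.08) and let-7e 0.22 (SE 0.09), both with a limma adjusted p of 0.22, and the other 5 members lay between -0.15 and 0.14. The slides hold different rats, and slide and set of pools cannot be told apart. Because each time lies on 1 slide, miR-98's time differences moved when slide was in the fit: -0.05 at 1 h, 0.25 at 6 h, -0.12 at 12 h and -0.32 at 24 h on the log2 scale, against -0.32, -0.03, 0.27 and 0.07 without it. Without the array with the dim centre, and with no slide term, these differences were -0.175, 0.116, 0.414 and 0.222. Within slide 2 alone, miR-98 at 12 h and 24 h minus before PHx was -0.16 and -0.35, and within slide 1 alone, at 1 h and 6 h, -0.05 and 0.25. For EtOH minus CHO before PHx miR-98 had 0.08 in the fit without slide, 0.19 with it, 0.04 within slide 1, 0.42 within slide 2, and -0.22 without the array with the dim centre. With slide in the fit, and within each slide, 0 of 8 members were called by limma in every contrast that could be fitted.

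**Figure D5:**
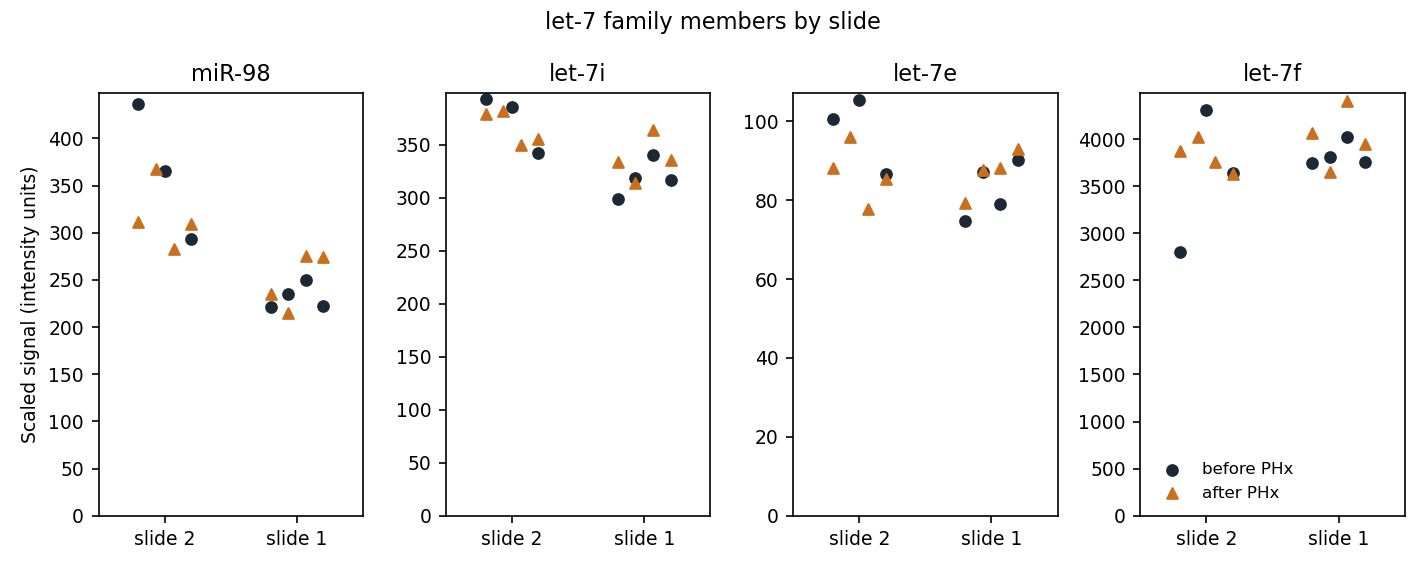
Scaled signal (intensity units, axes from 0) of miR-98, let-7i, let-7e and let-7f on the arrays of slide 2 (n = 7) and slide 1 (n = 8), with circles before PHx and triangles after it. Every slide 2 array has a higher miR-98 signal than every slide 1 array.

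The spread of the members' correlations depended on the array with the dim centre. Over the 15 arrays the Pearson correlations of the 28 pairs of members had a median of 0.41 and ran from -0.31 for let-7f with miR-98 to 0.93 for let-7i with miR-98. The 7875 pairs among the other tested miRNAs had a median of 0.04 and ran from -0.96 to 0.97. Without the array with the dim centre the members' pairs had a median of 0.64 over 14 arrays and ran from 0.21 for let-7d with let-7e to 0.93 for let-7a with let-7d, and the other pairs had a median of 0.05. These are descriptions over arrays that share their scaling. miR-98 and let-7i also had the largest log2 differences between slides, 0.67 and 0.24, and the part of slide in their correlation was not tested. let-7a correlated with let-7f at 0.89 and with let-7c at 0.89, and each of these is 1 base from let-7a. let-7e is also 1 base from let-7a and correlated with it at 0.17, or 0.52 without the array with the dim centre. let-7b and let-7c, the other pair 1 base apart, had 0.47, or 0.89 without that array. Pairs farther apart reached 0.93 for let-7i with miR-98, 4 bases apart, and 0.71 for let-7d with let-7i, 6 bases apart. let-7f with miR-98, neighbours on chromosome X, had 0.36 without the array with the dim centre.

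The 5 other miRNAs most like the mean log2 signal of the 8 members, by Pearson correlation over 15 arrays, were miR-23a (0.69), miR-125a-5p (0.65), miR-99b (0.65), miR-214 (0.65) and miR-15b (0.64). Without the 2 arrays farthest from the median of the family mean these were 0.53, 0.39, 0.42, 0.64 and 0.68, and without the array with the dim centre 0.71, 0.65, 0.68, 0.65 and 0.64. miR-99b lay at or near the floor, between 9.61 and 14.4, and was detected on 11 of 15 arrays.

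miRNAs encoded beside let-7 genes were the other group followed: miR-99a, miR-99b, miR-100, miR-125a-5p and miR-125b-5p, which in mammals are made from the same clusters as some let-7 copies. In EtOH livers before PHx 3 of these 5 were lower than in CHO livers and 2 were not called in limma, where 12.7% of all tested miRNAs were called lower. miR-99a averaged 368 ± 59.9 in EtOH livers (SD, n = 3) and 495 ± 26.7 in CHO livers (SD, n = 4), with a log2 difference of -0.44 and a limma adjusted p of 0.0152. miR-125b-5p averaged 689 ± 68.4 in EtOH livers and 903 ± 54.9 in CHO livers, with -0.39 and 0.0152, and miR-100 120 ± 6.39 in EtOH livers and 157 ± 18.6 in CHO livers, with -0.39 and 0.0167. miR-99b, with -0.05, and miR-125a-5p, with -0.12, lie beside let-7e and were not called. After PHx 0 of 5 were called between the diets, with log2 differences of -0.28 to -0.07. Whether these miRNAs and the let-7 members differ in their response to the diet was not tested.

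The passenger strands of let-7 precursors gave almost no signal. Of 10 such strands listed, 4 were on the array: let-7b* and let-7d* were detected on 1 array each, and let-7e* and let-7i* on 0 of 15. None was detected on enough arrays to be tested.

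Markers of other liver cells were counted beside the diet comparison before PHx. Of the tested markers, 1 of 3 for leukocytes and 2 of 3 for biliary and other epithelium were called lower in EtOH livers. Of all tested miRNAs 12.7% were called lower, and 15.7% in either direction. For hepatocytes 0 of 3 were called, for erythroid cells 0 of 2, for endothelium 0 of 1 and for stellate cells 0 of 5. Leukocyte miR-142-5p and epithelial miR-200c and miR-141 were detected on 0 arrays. Their part in the values of the let-7 members was not tested.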

How the data were processed

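Spot intensity values, linear and with background already subtracted by Agilent Feature Extraction per the file headers, were read from the deposited scanner files. The headers give version 10.5.1.1, and the submitters' processing notes give 10.7.3.1. A deposited table by the authors gives log2 values, 1 per miRNA, made in a way not given in the sources used here. In the authors' deposited table let-7f and let-7a take 2 distinct values over the 15 arrays and let-7c takes 3, and its 13 largest values are identical in every column. It served only as an alternative.

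Spots that the software marked as outliers (2.38%) were dropped and the rest averaged per probe. Signals were scaled so that all arrays had the same 75th percentile over the 185 probes detected on every array (236.5 to 515.5 beforehand), floored at 9.61 and put on the log2 scale. Each miRNA was represented by its brightest probe on average. Detection of a probe needed 0.5 or more of its spots well above background, and the 134 miRNAs detected on at least 3 arrays were tested.

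limma 3.58.1 (lmFit and eBayes, R 4.3.3) was fitted to the 15 arrays together. Its terms were the diet difference before PHx, the diet difference after it, and the 4 times, which left 8 residual degrees of freedom. P-values were adjusted by Benjamini-Hochberg over the 134 miRNAs. They rest on the spread between pools before PHx and on how the diet difference varied between times after it. Arrays of the same rats counted as independent in this fit. It was tried on simulated data with independent noise, without pairing or slide, so that trial does not cover these features. The number of arrays limits the precision. The partner of the 24 h EtOH pool before PHx was not analysed here. Pools pair across PHx because the labels list the same rats, and residuals of paired arrays correlated by -0.100 to 0.242 over 7 pools. Named are the 8 members, the listed neighbours, passenger strands and cell markers, and the 5 miRNAs most like the family mean. Members, lists and ratios were chosen with earlier results of these data known.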

Additional observations from a re-analysis of the deposited data

Results flagged for a closer look

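Among the 4 CHO pools before PHx, replicate 3 was far above the other pools for 3 members. The gap of the highest pool to the next one, divided by the group's whole range, was 0.901 for let-7a, 0.965 for let-7c and 0.888 for let-7d, above Dixon's critical value for 4 samples. The signals of that pool were 3555, 1861 and 1087, while the other 3 CHO pools lay between 2894 and 2953 for let-7a, 1562 and 1572 for let-7c, and 885 and 906 for let-7d. In all 9 such tests were made, and chance flags about 1 in 20 groups. The 3 members were measured on the same array, so the flags are not independent.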

How the results depend on the processing

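Over the 64 log2 differences of the members, 1808 values under alternatives were computed, and 1567 kept their direction and their side of the threshold. Another 222 changed sign without passing the threshold in either setting, 8 passed it in the same direction, 0 lost it and 11 passed it with the opposite sign. Part of the 1808 could not move, as with another filter on the tested miRNAs or without an array that the contrast does not use. Nor could any be lost, since no member was called in any contrast with the main values. The 1567 is therefore not a measure of how robust the differences are. For diet before PHx the count of called members was 0, but 6 with no scaling between arrays, where the median of all tested miRNAs moved to -0.53 and let-7b had -0.520 and let-7i -0.521. It was 1 with the total gene signal, let-7e with -0.242, and 0 to 1 over fits leaving out 1 array. At 12 h 2 members were called with the values of the authors' deposited table, let-7f with -0.264 and let-7a with -0.283. At 24 h 2 were called with quantile normalization, let-7f with -0.380 and let-7a with -0.382. The count at 24 h was 1 with the total gene signal and 3 with the authors' deposited table. The first was let-7e with -0.280, and the other 3 were let-7e with -0.360, let-7f with -0.264 and let-7a with -0.283. In the mean over times 1 was called with quantile normalization, let-7a with -0.192, and 2 with the authors' deposited table, let-7f with -0.132 and let-7a with -0.212. Quantile normalization gives each rank the same value on every array, and let-7f ranked 2 or 3 and let-7a 3 or 4 among all miRNAs on each array, so there their values follow their ranks. The authors' deposited table has the same 13 largest values in every column. In it let-7f took only 12.07 or 11.81, and let-7a only 11.81 or 11.53. The cause of the differences with that table and of the others was not tested. With the replicate block, pools of the same rats or sets of pair-fed pools, 0 of 8 members were called in every contrast that could be fitted, so the pairing changed no call of a member, while calls among all miRNAs at 24 h, 12 h and 6 h were fewer. With all probes in the percentile, the median of all tested miRNAs for diet after PHx was 0.19, against -0.05, 0 members were called, and 2 miRNAs in all were called for diet before PHx, against 21. Normexp on the mean spot signal was not run, because the scanner files used hold no such column. Normexp on the median spot signal, the median of spots and the dimmer probes were added after seeing the data, and the first 2 called 0 members in every contrast.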
